A study of Homo sapiens with 12 samples.

Results

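The genes described here are the histone genes of the 4 clusters named HIST1 to HIST4, read in the polyadenylated RNA of C4.2B cells. They were taken by name and biotype, as every gene in the count table that is protein coding and carries a cluster symbol for histone H1, H2A, H2B, H3 or H4. This gave 71 of 58735 genes, with 6 H1, 17 H2A, 18 H2B, 15 H3 and 15 H4 genes. The HIST1 cluster on chromosome 6 holds 55 of them, HIST2 on chromosome 1 holds 12, HIST3 on chromosome 1 holds 3 and HIST4 on chromosome 12 holds 1. No measured value entered this choice.

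C4.2B cells are a human prostate cancer line that descends from LNCaP and grows without androgen. The 12 libraries form 4 arms of 3, and each arm received vehicle (DMSO), 0.25 μM ipatasertib, which inhibits AKT (AKTi), 1 μM tazemetostat, which inhibits EZH2 (EZH2i), or both drugs (combination). Cells of the EZH2i and combination arms had been held in tazemetostat for 6 days beforehand, while the DMSO and AKTi arms had not, so AKT inhibition lasted 24 hours and EZH2 inhibition longer. All 4 arms were in charcoal-stripped serum for the last 24 hours. The libraries come from 1 cell line seeded on triplicate plates, so P values measure the spread between plates of that line, which may be technical.

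Histones package DNA. H2A, H2B, H3 and H4 form the core around which DNA is wound, and H1 binds the linker between cores. Most genes of these clusters are replication dependent: they are transcribed in S phase, and their RNA ends at a stem-loop that is bound by SLBP, without a poly(A) tail. Libraries made from polyadenylated RNA therefore leave out most of this RNA. Some members also give polyadenylated transcripts that run past the stem-loop to an ordinary poly(A) site, and these are known from differentiated and non-dividing cells. EZH2, the target of tazemetostat, methylates lysine 27 of histone H3.

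The stem-loop is shown first, because it is the feature that separates the 2 kinds of RNA end. The sequences below are RNA-sense DNA from hg38 for the member with the highest level of each type and for HIST1H2BK. Capitals mark both arms of the stem, and the letters between them are the loop.
HIST1H1C, chr6:26055739-26055764, minus strand: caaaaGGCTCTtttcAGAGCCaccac
HIST1H2AC, chr6:26124664-26124689, plus strand: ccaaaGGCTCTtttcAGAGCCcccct
HIST2H2BE, chr1:149886183-149886208, minus strand: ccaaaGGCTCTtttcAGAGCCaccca
HIST1H2BK, chr6:27146361-27146386, minus strand: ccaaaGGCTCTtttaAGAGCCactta
HIST1H3H, chr6:27810511-27810536, plus strand: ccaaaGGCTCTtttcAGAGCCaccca
HIST1H4H, chr6:26285126-26285151, minus strand: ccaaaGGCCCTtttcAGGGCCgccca

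Of the 71 members, 66 had a gene of the same identifier in the GENCODE v44 annotation, and all 66 carried such a stem-loop, 22 to 62 bases after the stop codon (median 35). HIST1H4H differs from the others shown in its stem, which pairs GGCCCT with AGGGCC. The members thus share the stem-loop and differ in what lies beyond it. The span over which the authors counted reads ran more than 100 bases past the stem-loop in 25 of the 66 members, ended within 100 bases past it in 6, and stopped before its end in 35.

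Most histone genes gave few reads. Of the 71 members, 10 had no read in any library, 21 had 1 to 100 reads in total and 40 had more than 100. The filter on low counts kept 41 members, namely 4 H1, 10 H2A, 13 H2B, 6 H3 and 8 H4 genes. Of the 30 that were not tested, 20 had reads, from 1 to 83 in total. HIST1H4C, an H4 gene, had the highest total among these, at 83. All 71 members together gave 257983 reads, from libraries with 14133755 to 22276417 counts each.

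A few members held most of this signal. The 10 members with the highest level made up 83.0% to 85.5% of the summed histone CPM (reads per 1000000 counted, scaled by TMM) in every library, and the first 5 made up 62.4% to 69.3%. By mean CPM these were HIST1H1C (258), HIST2H2BE (202), HIST1H2BK (149.8), HIST1H2AC (139.5) and HIST1H4H (89.5), followed by HIST1H3H (58.4), HIST1H4I (50.7), HIST1H2BD (49.8), HIST3H2A (39.9) and HIST1H2BC (32.7). Per kilobase of the length given in the count table, HIST1H1C (402 CPM per kb) and HIST1H2BK (393) stood well above HIST2H2BE (92.2) and HIST1H2AC (83.7). These values compare levels between genes only as far as the counted lengths fit the RNA: HIST1H1C was counted over 642 bases and HIST1H2BK over 381, neither of which reaches the stem-loop, while HIST2H2BE was counted over 2194.

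The counted span went with the level. Among the 20 members with the highest CPM, 17 were counted over more than 100 bases past the stem-loop. Their group of 25 had a median of 6.41 CPM per kb (from 0.00242 to 92.2), against 0.493 (from 0 to 402) in the 35 whose span stopped short and 4.90 in the other 6. A longer span collects reads that a shorter one cannot, and reads past the end of a short span are not in these counts, so the part of the annotation in these levels was not tested. HIST1H1C and HIST1H2BK had the highest level per kilobase of all members although their spans stop before the stem-loop.

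**Figure D1:**
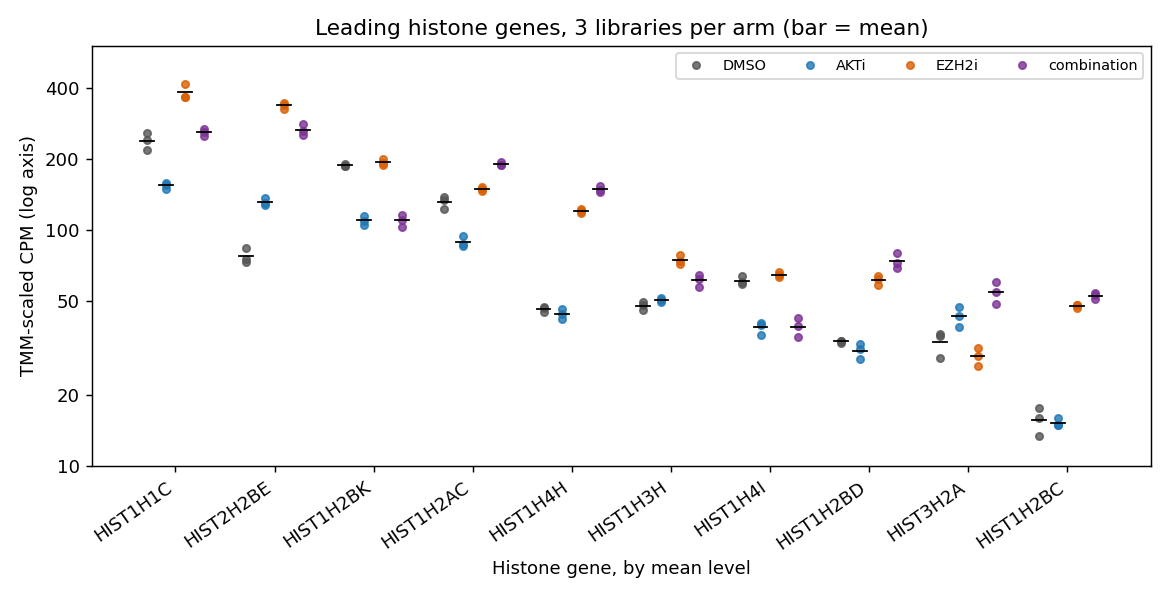
CPM (TMM-scaled, log axis) of the 10 histone genes with the highest mean level, with 1 point for each of the 3 libraries of an arm and a bar at the arm mean. HIST2H2BE rises from 77.3 CPM in DMSO to 336 in EZH2i, while HIST1H2BK lies near 109 CPM in both arms that received ipatasertib and at 187.5 and 192.9 in DMSO and EZH2i.

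Summed over all 71 members, the level was 1033 ± 29.1 CPM (SD, n = 3) in DMSO, 838 ± 13.2 under AKTi, 1705 ± 22.9 under EZH2i and 1490 ± 40.0 in the combination. The libraries of the 4 arms did not overlap in this sum. AKTi libraries were the lowest, at 823 to 848 CPM, and EZH2i libraries the highest, at 1687 to 1731 CPM.

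The 5 types did not follow one order of arms. H1 was 243 ± 19.04 CPM in DMSO, 155.5 ± 4.98 under AKTi, 388 ± 28.3 under EZH2i and 262 ± 9.59 in the combination. H2B was 388 ± 9.22, 343 ± 10.2, 752 ± 14.9 and 605 ± 22.7 CPM in the same order. In these 2 types EZH2i was highest.

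H2A and H4 were instead highest in the combination. H2A was 213 ± 15.4 CPM in DMSO, 171.0 ± 3.68 under AKTi, 237 ± 3.72 under EZH2i and 293 ± 6.48 in the combination. H4 was 125.6 ± 0.443, 98.1 ± 4.85, 218 ± 0.748 and 232 ± 3.31 CPM. H3 was the one type that was not lowest under AKTi, with 62.9 ± 3.76 CPM in DMSO, 70.9 ± 1.80 in AKTi, 109.6 ± 4.92 under EZH2i and 98.3 ± 2.10 in the combination.

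Single genes set the size of several of these ratios. Without its leading member the combination to DMSO ratio of the H1 sum turned from 0.11 to -0.40 on the log2 scale, that of H4 dropped from 0.89 to 0.08 and that of H2B from 0.64 to 0.13. For H3 the ratio rose from 0.65 to 1.30. For H2A it went from 0.46 to 0.33, so the sign changed for H1 and for no other type. In bulk RNA, fewer cells that express a gene and less of its RNA per cell cannot be told apart.

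**Figure D2:**
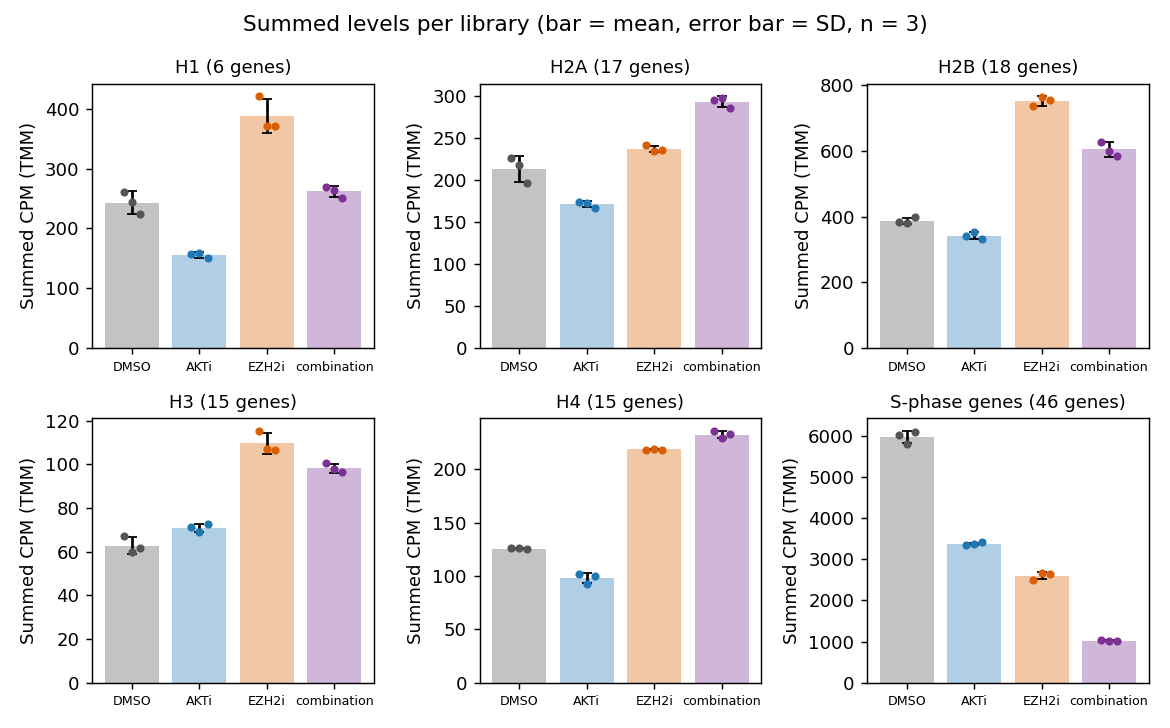
Summed TMM-scaled CPM of the histone genes of each type and of 46 S-phase genes in the 4 arms; points are libraries, bars are means and error bars are SD (n = 3). H2B reaches 752 CPM in EZH2i from 388 in DMSO, while the S-phase sum declines from 5968 CPM in DMSO to 1026 in the combination.

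Each member was then tested with edgeR's quasi-likelihood test, with Benjamini-Hochberg adjustment over all 16646 genes that passed the filter. Under AKTi alone, 7 of the 41 tested members rose and 12 fell against DMSO, where 20.6% of all tested genes rose and 21.9% fell. Under EZH2i alone 23 rose and 2 fell, against 32.6% and 31.5% of all genes. In the combination 25 rose and 11 fell, against 38.0% and 35.2%. The median log2 fold change of the 41 members was -0.08 for AKTi, 0.69 for EZH2i and 0.71 for the combination, and that of all tested genes was 0.01, 0.03 and 0.06. These comparisons share the DMSO libraries. The filter keeps a gene for its level in any arm, so the 41 are not all members, and the counts describe the genes that could be measured.

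Between treated arms, the combination was higher than AKTi in 24 members and lower in 1 (32.1% and 32.1% of all genes), with a median log2 difference of 0.82 beside 0.04 for all genes. It was higher than EZH2i in 12 and lower in 12 (21.1% and 25.7%), with a median of -0.05. EZH2i exceeded AKTi in 31 members and was below it in 1 (25.4% and 25.1%), with a median of 0.82. The interaction, which asks whether the combination differs from the sum of both single effects on the log2 scale, was positive in 8 members and negative in 4 (10.7% and 17.5%). In either direction it was called in 28.2% of all genes, which is near the 12 of 41 among the members.

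By arm, 3 patterns took in 27 of the 41 members. The largest, of 14, passed no test under AKTi and rose in both EZH2i and the combination, a pattern of 13.2% of all tested genes. Of these, HIST1H4B and HIST1H4J passed the filter on low counts through libraries of treated arms alone, where they are high. The second, of 7, fell in AKTi and in the combination and passed no test in EZH2i, as did 1.74% of all genes. Of these, HIST1H1B, HIST1H2AL and HIST1H3B passed the filter on low counts through DMSO and EZH2i libraries, where they are high. The third, of 6, rose in all 3 treated arms, against 14.6% of all genes.

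The linker histone HIST1H1C (ENSG00000187837, chr6:26055787-26056428) belonged to none of these. This gene for histone H1.2 was at 257, 240 and 218 CPM in DMSO, 155, 158 and 148 under AKTi, 414, 366 and 365 under EZH2i, and 266, 260 and 248 in the combination. The DMSO and combination libraries overlapped and the others stood apart. Against DMSO it fell by 0.63 (SE 0.06, adjusted P = 9.0e-11) on the log2 scale in AKTi and rose by 0.68 (SE 0.06, adjusted P = 1.4e-12) in EZH2i. In the combination the difference was 0.12 (SE 0.06, adjusted P = 0.076), and the interaction was 0.07 (SE 0.08, adjusted P = 0.62). The combination value became a call without DMSO replicate A (0.16, adjusted P = 0.023) and under scaling by library size (0.31) or upper quartile (0.30). It also became one with at least 10 counts required in every library (0.18, adjusted P = 0.0045) and with a replicate block (0.12, adjusted P = 0.047).

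The other H1 genes were low. HIST1H1B, for histone H1.5, was at 2.96, 3.32 and 2.73 CPM in DMSO, 0.506, 0.490 and 0.765 under AKTi, 3.48, 2.86 and 3.26 under EZH2i, and 0.811, 0.577 and 0.362 in the combination. Both ipatasertib arms lay below both other arms without overlap. Its log2 fold change was -2.33 (SE 0.35) in AKTi and -2.32 (SE 0.34) in the combination, with adjusted P values of 1.1e-06 and 1.4e-07, and 0.10 (adjusted P = 0.78) in EZH2i. HIST1H1B passed the filter on low counts through libraries of the DMSO and EZH2i arms, where it is high. Part of its difference from those arms may therefore follow from the filter.

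HIST1H1T, the testis H1 gene, had no read in any AKTi library, 2, 2 and 6 reads in DMSO, 3, 9 and 16 in EZH2i, and 17, 13 and 10 in the combination. With a floor of 3 reads set over the AKTi arm and the 10 DMSO reads taken as exact, it was 2.87-fold lower there than in DMSO. It passed the filter on low counts through libraries of the arms with tazemetostat, where it is high, so a difference from those arms follows from the filter. Its call in AKTi against DMSO (adjusted P = 0.014) was lost without DMSO replicate C (adjusted P = 0.062). HIST1H1E, for H1.4, passed no test against DMSO, and the remaining members of this type, HIST1H1A and HIST1H1D, had 1 and 17 reads in total.

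Among H2A genes, 2 rose and 3 fell under AKTi, 5 rose and 1 fell under EZH2i, and 5 rose and 3 fell in the combination, of 10 tested. Over all tested genes, 20.6% rose and 21.9% fell under AKTi, 32.6% and 31.5% under EZH2i, and 38.0% and 35.2% in the combination. HIST1H2AC (ENSG00000180573, chr6:26124145-26139116), the leading one, was at 138, 134 and 122 CPM in DMSO, 93.8, 86.8 and 85.3 under AKTi, 152, 145 and 149 under EZH2i, and 193, 188 and 189 in the combination. The 4 arms did not overlap. It fell by 0.57 (SE 0.06, adjusted P = 5.6e-10) in AKTi yet was 0.53 (SE 0.06, adjusted P = 1.3e-10) above DMSO in the combination. The interaction was 0.92 (SE 0.08, adjusted P = 3.6e-11). Its small rise in EZH2i (0.18, adjusted P = 0.0058) missed the threshold without DMSO replicate B (0.14), DMSO replicate C (0.13), AKTi replicate B (0.13) or EZH2i replicate C (0.14).

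HIST3H2A, from the HIST3 cluster, also went highest in the combination. It was at 35.4, 36.3 and 28.6 CPM in DMSO, 38.8, 46.8 and 43.0 under AKTi, 31.5, 29.0 and 26.5 under EZH2i, and 54.4, 60.2 and 48.3 in the combination. The combination libraries were above all others. The log2 fold change was 0.37 (SE 0.09, adjusted P = 0.0017) under AKTi, -0.20 (SE 0.10, adjusted P = 0.067) under EZH2i and 0.71 (SE 0.09, adjusted P = 1.4e-08) in the combination. The EZH2i value passed the threshold without DMSO replicate C (-0.31), any 1 of the AKTi replicates (-0.23 to -0.25) or EZH2i replicate A (-0.29), and the difference between combination and AKTi (0.34) was lost without AKTi replicate A (0.22).

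HIST1H2AG was lower in both ipatasertib arms. It was at 33.7, 33.6 and 29.6 CPM in DMSO, 22.6, 22.8 and 23.5 under AKTi, 30.9, 36.0 and 32.8 under EZH2i, and 18.1, 20.5 and 22.4 in the combination. DMSO and EZH2i overlapped, and both lay above the other 2 arms. Its log2 fold change was -0.49 (SE 0.09, adjusted P = 5.8e-05) in AKTi and -0.67 (SE 0.09, adjusted P = 6.7e-08) in the combination.

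HIST1H2AL followed at a lower level, with 30, 21 and 36 reads in DMSO, 9, 3 and 5 under AKTi, 16, 30 and 27 under EZH2i, and 5, 5 and 3 in the combination. The log2 fold change was -2.12 (SE 0.47, adjusted P = 0.00033) in AKTi and -2.83 (SE 0.49, adjusted P = 3.2e-06) in the combination. HIST1H2AL passed the filter on low counts through libraries of the DMSO and EZH2i arms, where it is high. Part of its difference from those arms may therefore follow from the filter. Its span lies inside that of HIST1H2BN on the same strand, so the counting may have left out or split its reads.

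HIST2H2AA4 rose in all 3 treated arms, from 1.99 ± 0.695 CPM in DMSO to 3.61 ± 0.604 under AKTi, 4.68 ± 0.192 under EZH2i and 4.50 ± 1.45 in the combination. The DMSO libraries, at 1.40 to 2.76 CPM, lay below all others. Its log2 fold change of 0.85 in AKTi (SE 0.27, adjusted P = 0.0086) missed the threshold without DMSO replicate B (0.65) or AKTi replicate A (0.73). This gene is known as one of a duplicated pair in the HIST2 cluster, and reads may be split between the copies.

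Among H2B genes, 4 rose and 2 fell under AKTi, 9 rose and none fell under EZH2i, and 9 rose and 4 fell in the combination, of 13 tested. The shares of all tested genes given with the H2A genes apply here too. HIST2H2BE (ENSG00000184678, chr1:149884459-149886652) is a histone H2B gene whose v44 transcript runs 1729 bases past the stem-loop and has a poly(A) signal in its last 50 bases. It was at 73.1, 75.2 and 83.6 CPM in DMSO, 129, 136 and 128 under AKTi, 326, 339 and 345 under EZH2i, and 280, 262 and 251 in the combination. No 2 arms overlapped, and EZH2i was the highest.

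HIST2H2BE rose by 0.76 (SE 0.06, adjusted P = 9.5e-13) under AKTi, by 2.12 (SE 0.06, adjusted P = 1.7e-26) under EZH2i and by 1.77 (SE 0.06, adjusted P = 6.1e-25) in the combination. These are folds of 1.69, 4.34 and 3.41. The combination was below EZH2i by 0.35 (adjusted P = 2.4e-06), and the interaction was -1.10 (SE 0.08, adjusted P = 4.2e-13). The gene was thus higher with ipatasertib in cells without tazemetostat and lower with it in cells with tazemetostat.

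HIST2H2BF, which lies in the same cluster and has a coding sequence 94.4% identical to that of HIST2H2BE, rose without such an interaction. It was at 6.33, 7.08 and 6.33 CPM in DMSO, 11.8, 11.5 and 8.41 under AKTi, 25.1, 25.9 and 23.8 under EZH2i, and 40.5, 36.6 and 42.4 in the combination. The arms did not overlap, and the combination was highest. Log2 fold changes were 0.69 (SE 0.13) under AKTi, 1.93 (SE 0.12) under EZH2i and 2.60 (SE 0.12) in the combination, with adjusted P values of 5.6e-05, 1.4e-16 and 3.2e-21. The HIST2H2BF span overlaps those of 2 other genes, 1 of them on the same strand, so the counting may have left out or split its reads.

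HIST1H2BC and HIST1H2BD rose with EZH2i, with or without AKTi. HIST1H2BC was at 17.5, 13.4 and 15.9 CPM in DMSO, 14.8, 14.9 and 15.9 under AKTi, 46.5, 47.8 and 47.8 under EZH2i, and 50.6, 54.0 and 53.0 in the combination. The DMSO and AKTi libraries overlapped, and the other 2 arms lay well above them. The log2 fold change was 1.60 (SE 0.09, adjusted P = 5.3e-18) in EZH2i and 1.75 (SE 0.09, adjusted P = 1.1e-19) in the combination.

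HIST1H2BD went from 33.6 ± 0.382 CPM in DMSO and 30.6 ± 2.25 in AKTi to 61.1 ± 2.78 in EZH2i and 73.7 ± 5.45 in the combination. The log2 fold change was 0.86 (SE 0.07, adjusted P = 1.1e-12) in EZH2i and 1.13 (SE 0.07, adjusted P = 2.3e-16) in the combination. The HIST1H2BD span also overlaps those of 2 other genes, 1 of them on the same strand. HIST1H2BL rose at a lower level, from 2.07 ± 0.525 CPM in DMSO to 5.47 ± 0.130 in the combination. Its call in AKTi (0.90, adjusted P = 0.0075) was lost without AKTi replicate A (0.40) or DMSO replicate C (0.71).

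HIST1H2BK and HIST1H2BJ were lower in both arms with ipatasertib. HIST1H2BK (ENSG00000197903, chr6:27146418-27146798) was at 187, 186 and 189 CPM in DMSO, 105, 114 and 109 under AKTi, 192, 200 and 187 under EZH2i, and 116, 110 and 103 in the combination. Both ipatasertib arms lay below both other arms, and within each of these sets the libraries overlapped. It fell by 0.78 (SE 0.06, adjusted P = 8.2e-14) in AKTi and by 0.78 (SE 0.06, adjusted P = 4.8e-15) in the combination. In EZH2i the value was 0.04 (SE 0.05, adjusted P = 0.53), and it became a call with scaling by library size (0.19) or upper quartile (0.16).

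HIST1H2BJ, which the naming rule did not pick and which was chosen after its values were seen, fell further. It was at 36.3, 34.6 and 37.7 CPM in DMSO, 9.55, 10.8 and 10.2 under AKTi, 40.6, 39.5 and 40.3 under EZH2i, and 10.4, 9.40 and 9.48 in the combination. The log2 fold change was -1.83 (SE 0.10, adjusted P = 1.8e-17) in AKTi and -1.89 (SE 0.10, adjusted P = 1.2e-19) in the combination.

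Of the 6 tested H3 genes, 1 rose and 1 fell under AKTi, 3 rose under EZH2i, and 4 rose and 2 fell in the combination. These few counts also stand beside the shares of all tested genes given with the H2A genes. HIST1H3H (ENSG00000278828, chr6:27810064-27811300) was at 49.2, 45.9 and 48.0 CPM in DMSO, 50.4, 49.3 and 51.4 under AKTi, 78.0, 73.7 and 71.5 under EZH2i, and 64.2, 61.6 and 57.3 in the combination. EZH2i was highest, and DMSO and AKTi differed by 0.08 (SE 0.07, adjusted P = 0.39). It rose by 0.64 (SE 0.07, adjusted P = 1.4e-10) in EZH2i and by 0.36 (SE 0.07, adjusted P = 1.5e-05) in the combination, with an interaction of -0.36 (SE 0.10, adjusted P = 0.0035).

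HIST1H3E, also chosen after its values were seen, rose in all 3 treated arms. It was at 10.7 ± 1.48 CPM in DMSO, 16.9 ± 1.17 under AKTi, 27.3 ± 1.11 under EZH2i and 29.8 ± 0.578 in the combination. Log2 fold changes were 0.66 (SE 0.11), 1.35 (SE 0.10) and 1.48 (SE 0.10), with adjusted P values of 6.3e-06, 6.2e-14 and 2.0e-15.

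Of the 8 tested H4 genes, none rose and 3 fell under AKTi, 5 rose and 1 fell under EZH2i, and 6 rose and 1 fell in the combination. Again the shares of all tested genes are those given with the H2A genes. HIST1H4H (ENSG00000158406, chr6:26277609-26285638) was at 44.9, 47.0 and 46.5 CPM in DMSO, 46.0, 41.7 and 43.7 under AKTi, 117, 122 and 120 under EZH2i, and 153, 148 and 144 in the combination. DMSO and AKTi overlapped, EZH2i was higher and the combination higher again. It rose by 1.38 (SE 0.06, adjusted P = 9.1e-21) in EZH2i and by 1.68 (SE 0.06, adjusted P = 4.5e-24) in the combination, with an interaction of 0.38 (SE 0.09, adjusted P = 0.00074).

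HIST1H4E and HIST1H4B took the same direction by larger factors from low levels. HIST1H4E was at 2.83, 3.10 and 2.35 CPM in DMSO, 1.88, 2.03 and 2.78 under AKTi, 8.44, 12.5 and 11.7 under EZH2i, and 15.1, 14.99 and 14.7 in the combination. Its log2 fold change was 2.005 (SE 0.18, adjusted P = 2.3e-12) in EZH2i and 2.45 (SE 0.17, adjusted P = 2.9e-15) in the combination. HIST1H4B had 9, 7 and 10 reads in DMSO and 81, 71 and 65 in the combination, a log2 fold change of 2.92 (SE 0.34, adjusted P = 1.4e-09). HIST1H4B passed the filter on low counts through libraries of the treated arms, where it is high. Part of its difference from DMSO may therefore follow from the filter.

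HIST1H4I was lower with ipatasertib in both settings. It was at 63.4, 59.97 and 59.1 CPM in DMSO, 39.5, 35.9 and 40.2 under AKTi, 66.4, 62.8 and 64.3 under EZH2i, and 35.1, 38.9 and 42.4 in the combination. The ipatasertib arms overlapped each other and lay below the rest. It fell by 0.66 (SE 0.08, adjusted P = 4.1e-09) in AKTi and by 0.65 (SE 0.07, adjusted P = 6.2e-10) in the combination.

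HIST2H4A and HIST2H4B have identical coding sequences, so the split of reads between them is uncertain. HIST2H4B was at 3.23, 6.34 and 7.43 CPM in DMSO, 4.05, 3.71 and 3.20 under AKTi, 4.15, 4.27 and 3.63 under EZH2i, and 10.7, 5.71 and 9.67 in the combination. The DMSO libraries overlapped those of each other arm. Its fall in EZH2i (-0.52, SE 0.23, adjusted P = 0.049) missed the threshold with DESeq2, with scaling by library size (-0.38) or upper quartile (-0.40), and when any 1 of 5 libraries was left out, namely DMSO replicate B (-0.51), DMSO replicate C (-0.25), EZH2i replicate B (-0.57), EZH2i replicate C (-0.49) or combination replicate C (-0.52). The interaction was 1.77 (SE 0.33, adjusted P = 6.6e-05) for HIST2H4B and 1.47 (SE 0.41, adjusted P = 0.0064) for HIST2H4A, which was chosen after its values were seen.

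**Figure D3:**
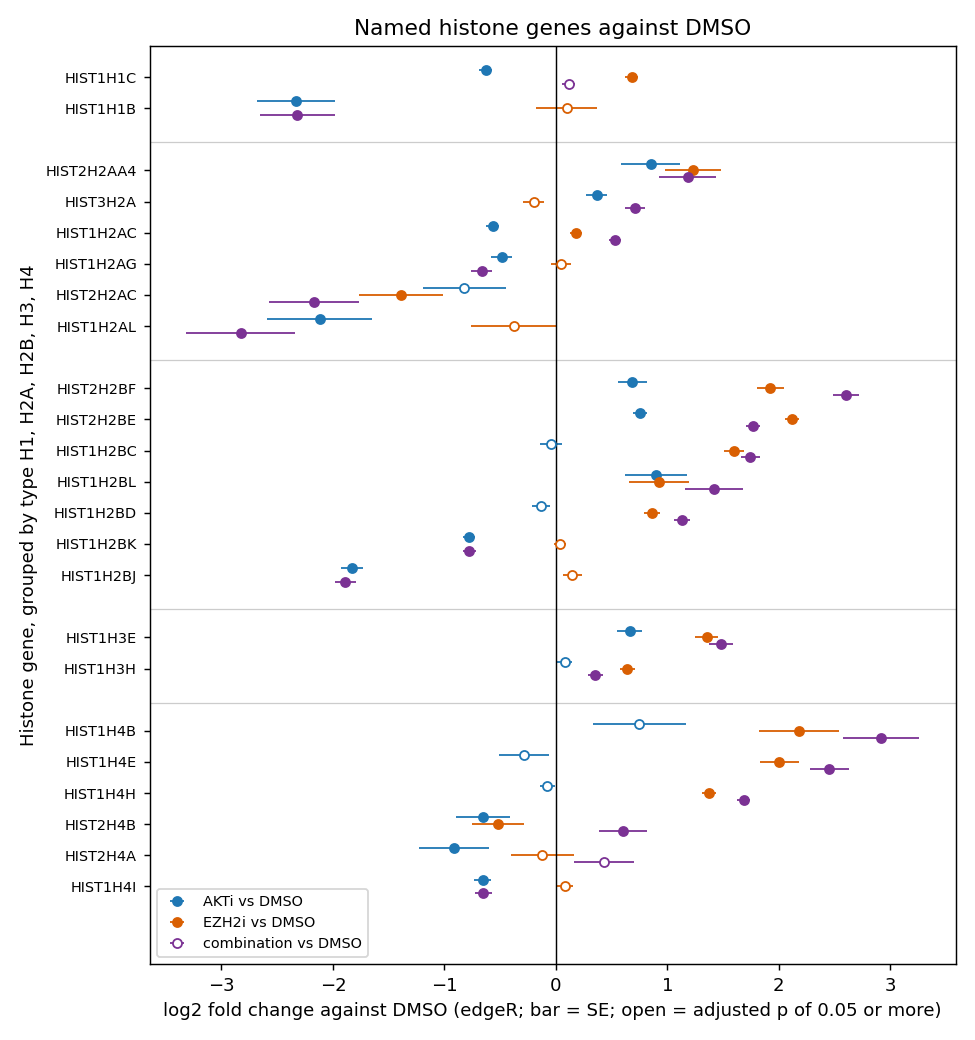
Log2 fold change against DMSO (x axis) of 23 named histone genes (rows, grouped by type) in AKTi, EZH2i and the combination; bars are SE and open points have an adjusted P value of 0.05 or more. HIST1H2BK, HIST1H2BJ and HIST1H4I lie to the left in both ipatasertib arms and near 0 in EZH2i, while HIST1H4H and HIST1H2BC lie to the right in both tazemetostat arms.

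The counts were also read by span. Of the 21 tested members counted over more than 100 bases past the stem-loop, 16 rose and 4 fell in the combination, with a median log2 fold change of 0.98. Of the 12 tested members whose span stopped before the end of the stem-loop, 3 rose and 6 fell, with a median of -0.42. In EZH2i the counts were 14 up and 1 down against 2 up and 1 down. In AKTi they were 5 up and 6 down against none up and 5 down. Over all tested genes, 38.0% rose and 35.2% fell in the combination, 32.6% and 31.5% in EZH2i, and 20.6% and 21.9% in AKTi. Grouped instead by v44 transcript ends, 14 of 16 tested members running over 100 bases past the stem-loop rose in the combination and 1 fell. Of the 22 other tested members with a v44 gene, 9 rose and 9 fell. The difference between the sets was not tested in either grouping. By span it moves with the level, since the members whose span stopped short had fewer reads. Part of it may also follow from the filter on low counts. HIST1H1B, HIST1H2AL and HIST1H3A, which fell in the combination, passed through DMSO and EZH2i libraries, where they are high. HIST1H1T, which rose in the combination, passed through the arms with tazemetostat. In both groupings these genes are among the members with the shorter ends.

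Many of these genes lie head to head, an H2A gene beside an H2B gene, with both starts in one short stretch of DNA. By the starts of the counted spans, 12 pairs of members lay within 1000 bases, and in 7 both genes could be tested. HIST1H2BO is in a pair with HIST1H2AM and in another with HIST1H3J. HIST2H2BE and HIST2H2AC are 322 bases apart. In the pairs shown, the upstream windows of both genes overlap on opposite strands, so 1 sequence is shown per pair. Capitals below mark matches, on either strand, to the octamer ATTTGCAT, to CCAAT and to TATAAA in the RefSeq upstream sequence (GRCh38.p14), written in the direction of the named gene. The pairs shown are one whose genes went opposite ways and one whose genes fell together.
HIST2H2BE, chr1:149886683-149886932, minus strand: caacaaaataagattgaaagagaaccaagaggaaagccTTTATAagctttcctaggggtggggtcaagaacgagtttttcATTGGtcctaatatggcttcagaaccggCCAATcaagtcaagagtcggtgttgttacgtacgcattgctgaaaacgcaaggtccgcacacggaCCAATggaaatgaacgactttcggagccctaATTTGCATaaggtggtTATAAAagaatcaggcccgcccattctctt
HIST1H2BJ, chr6:27132796-27133045, minus strand: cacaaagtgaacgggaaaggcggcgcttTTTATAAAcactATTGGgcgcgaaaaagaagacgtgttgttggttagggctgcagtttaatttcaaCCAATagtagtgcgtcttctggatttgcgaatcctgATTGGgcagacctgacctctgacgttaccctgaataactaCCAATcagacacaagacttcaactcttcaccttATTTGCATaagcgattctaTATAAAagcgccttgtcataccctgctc

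Both windows hold 1 octamer, the sequence that POU2F1 (Oct-1) binds and that is known from H2B promoters. Of the 57 members matched to a RefSeq promoter, 33.3% had the octamer in these 250 bases, 82.5% had CCAAT and 66.7% had TATAAA. Over all 35116 promoters the shares were 1.63%, 32.0% and 10.7%. The octamer was in 68.8% of 16 H2A and 72.7% of 11 H2B promoters and in no H1, H3 or H4 promoter of the set. TTTATAAA, as in HIST1H2BJ, is 1 run of overlapping TATAAA matches on both strands. Such a match describes letters only.

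In the first pair the genes moved apart. HIST2H2AC, the H2A gene, had 44, 41 and 41 reads in DMSO, 20, 18 and 25 under AKTi, 20, 22 and 10 under EZH2i, and 14, 6 and 11 in the combination. It fell by 1.39 (SE 0.38, adjusted P = 0.0016) in EZH2i and by 2.17 (SE 0.41, adjusted P = 1.2e-05) in the combination, where HIST2H2BE rose by 2.12 and 1.77. HIST2H2AC was the 1 member lower in the combination than in AKTi (-1.35, SE 0.43, adjusted P = 0.0067). Its span of 390 bases stops before the stem-loop.

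In the pair of HIST1H2BJ and HIST1H2AG, 291 bases apart, both genes fell in AKTi and the combination, but by unequal amounts, -1.89 and -0.67 in the combination. In the pair of HIST1H2BC and HIST1H2AC, 218 bases apart, HIST1H2BC rose by 1.60 in EZH2i and HIST1H2AC by 0.18. HIST3H2A and HIST3H2BB, 233 bases apart, both rose in the combination, by 0.71 and 1.11, while in EZH2i HIST3H2BB rose (0.69) and HIST3H2A was at -0.20. HIST1H2BL and HIST1H2AI both rose in EZH2i and in the combination, where the values were 1.42 and 1.70. In the combination HIST1H3J rose by 1.70 (adjusted P = 0.00011) and HIST1H2BO fell by 0.75 (adjusted P = 0.029), both at low levels. That pair rests on the far end of the HIST1H3J span, at 27893106 on chromosome 6. The HIST1H3J stem-loop lies at 27890315 to 27890340, and the span overlaps that of HIST1H2AM on the same strand. In the last pair HIST1H2BG fell by 1.20 (adjusted P = 0.041) and HIST1H2AE was at 0.57 (adjusted P = 0.084) in the combination.

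**Figure D4:**
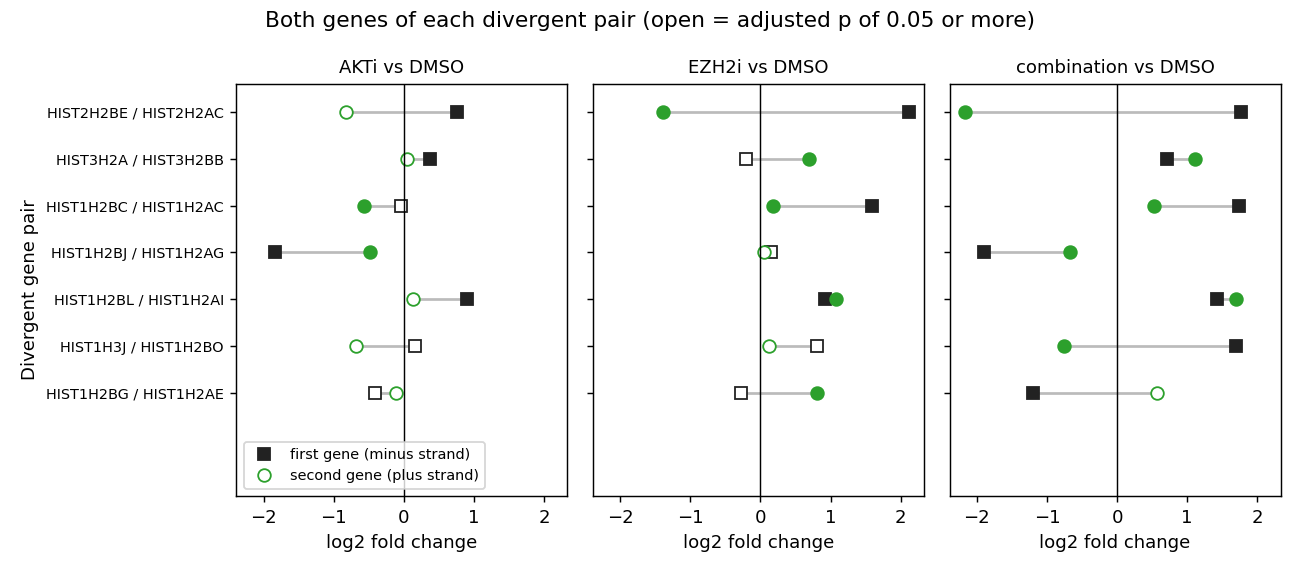
Log2 fold change against DMSO (x axis) of both genes in each of the 7 pairs, by the starts of the counted spans, that could be tested. Squares are the gene on the minus strand, circles the gene on the plus strand, open symbols an adjusted P value of 0.05 or more, and grey lines join a pair. HIST2H2BE (2.12) and HIST2H2AC (-1.39) lie on opposite sides of 0 in EZH2i.

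The histone levels were set beside genes of the S phase and of the histone pathway. Of 45 tested S-phase genes, 44 fell in AKTi and 45 in both EZH2i and the combination, with none rising. Over all tested genes 21.9%, 31.5% and 35.2% fell in these arms. Their summed level was 5968 ± 146.3 CPM in DMSO, 3375 ± 30.3 under AKTi, 2604 ± 85.0 under EZH2i and 1026 ± 12.6 in the combination. The summed histone level was thus highest in EZH2i, where the S-phase sum was below that of DMSO in every library. MKI67, a marker of cycling cells, was -1.14, -0.61 and -2.68 against DMSO in AKTi, EZH2i and the combination.

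Genes listed here as replication-independent histone variants went in both directions. Of 11 tested, none rose and 6 fell under AKTi, 5 rose and 5 fell under EZH2i, and 3 rose and 6 fell in the combination. Over all tested genes, 20.6% rose and 21.9% fell under AKTi, 32.6% and 31.5% under EZH2i, and 38.0% and 35.2% in the combination. H2AFZ, for H2A.Z, went from 1102 ± 65.1 CPM in DMSO to 509 ± 5.40, 442 ± 21.5 and 178 ± 3.63 in AKTi, EZH2i and the combination, and H2AFX, for H2A.X, from 341 ± 3.55 to 33.6 ± 3.96 in the combination. CENPA, the centromeric H3, changed by -3.16 in the combination. H1F0, the linker histone of resting and differentiated cells, rose by 0.58 in EZH2i and by 1.04 (SE 0.06, adjusted P = 1.3e-18) in the combination, and H3F3B, for H3.3, rose by 0.44.

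Genes that process or transcribe histone RNA were mostly lower. Of 27 tested, 3 rose and 16 fell under AKTi, 1 rose and 22 fell under EZH2i, and 3 rose and 22 fell in the combination. The shares of all tested genes given for the variants apply to this list and to the chaperones below. SLBP, which binds the stem-loop, was at 113 ± 7.83 CPM in DMSO, 79.1 ± 2.54 under AKTi, 45.3 ± 2.54 under EZH2i and 30.9 ± 0.379 in the combination. LSM10, of the U7 particle that cuts histone RNA, changed by -1.69 in the combination, whereas NPAT, the coactivator of histone gene transcription, was at -0.01 (adjusted P = 0.91). POU2F1, for Oct-1, rose by 0.24 in EZH2i and by 0.33 in the combination. Histone chaperones fell in 18, 21 and 22 of 27 genes and rose in 1, 3 and 2, with ASF1B at -4.16 and MCM2, also a helicase subunit, at -2.82 in the combination.

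RNAs without a poly(A) tail were read as a measure of what the poly(A) selection let through. Of 27 such genes 3 passed the filter, and the sum was 56.2 ± 9.65 CPM in DMSO, 37.4 ± 3.71 under AKTi, 46.6 ± 15.7 under EZH2i and 32.3 ± 9.52 in the combination. RN7SL2 made up most of it, and 1, 2 and 3 of the 3 fell in AKTi, EZH2i and the combination, with none rising. Over all tested genes 21.9%, 31.5% and 35.2% fell. The sum of these RNAs was not higher in EZH2i or the combination, where histone levels were higher, and its part in the histone levels was not tested. As a check of the cells, luminal prostate markers summed to between 3988 and 8955 CPM per library, while the 3 basal markers summed to at most 0.368, the 5 neuroendocrine markers to at most 3.46 and the 5 leukocyte markers to at most 1.58. Fibroblast markers summed to 6.33 to 20.3 CPM and endothelial markers to 2.16 to 7.38, and every EZH2i library was above every DMSO library in both sums. Their part in the histone levels was not tested.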

How the data were processed

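RNA of 12 libraries (4 arms, 3 replicates each) was analysed. Per the labels and the methods of the study, the authors used STAR for alignment to hg38, HTSeq for counts per gene and DESeq2 for normalization. Versions, annotation and strand setting are not given in the sources used here. The deposited count table holds raw whole reads of 58735 genes. The second deposited table holds signal values, which are DESeq2-normalized counts that equal the count divided by 1 size factor per library (largest relative deviation 5.6e-10 over 56994 names), and they served as an alternative.

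From the counts, genes were filtered by filterByExpr (minimum count 10, minimum total 15), scaled by TMM and fitted in edgeR 4.0.16 (R 4.3.3) with 1 mean per arm over all 12 libraries. Each comparison was a contrast, tested by quasi-likelihood at an adjusted P value of 0.05 over 16646 genes. The SE is the absolute log2 fold change divided by the square root of the F statistic. CPM are TMM-scaled. The fit was tested on simulated data. Libraries of an arm differed by more than sampling noise (chi-square 2.63 to 8.09 per gene). The sources give no sequencing batch by library, so none could be modelled.

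The members and lists were chosen with earlier results of these data known. Genes named were the 10 members with the highest mean CPM, the highest member of each type by CPM and by CPM per kb, and the 2 highest and 2 lowest log2 fold changes among called members in each contrast, plus those said in the text to be chosen later and partners of head-to-head pairs. Stem-loops were searched in hg38 within 150 bases after the stop codon of the GENCODE v44 gene (6-base stem, 4-base loop, all pairs formed). The spans in the count table overlapped the v44 spans for 66 of 66 genes, with the same start and end in 6. Promoters are from RefSeq. Alternatives were DESeq2 1.42.0, other scalings and filters, fits to the compared arms alone, a block for the replicate letter and leaving out single libraries.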

Additional observations from a re-analysis of the deposited data

Results flagged for a closer look

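In 12 members the effect of AKTi differed between cells with and without tazemetostat by the interaction term of the edgeR fit (adjusted P under 0.05), with a negative value in 4 and a positive value in 8. This is 12 of 41, near the 28.2% of all tested genes with such a call. The values below are the interaction on the log2 scale. They were negative in HIST2H2BE (-1.10), HIST2H2AA4 (-0.90), HIST1H3E (-0.53) and HIST1H3H (-0.36). They were positive in HIST1H4H (0.38), HIST1H2BD (0.40), HIST3H2A (0.54), HIST1H4E (0.73), HIST1H2AC (0.92), HIST2H4A (1.47) and HIST2H4B (1.77). The twelfth, HIST1H1T, has no read in AKTi, so its fitted value is not given. Its call was lost without DMSO replicate C (adjusted P = 0.059) and had no adjusted P with DESeq2, and it passed the filter through libraries of the arms with tazemetostat.

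The call of HIST2H2AA4 (adjusted P = 0.0499) was lost with DESeq2 or upper-quartile scaling (both -0.90) and when any 1 of 8 libraries was left out, namely DMSO replicates B (-0.70) and C (-0.83), AKTi replicates A (-0.81) and B (-0.86), EZH2i replicates B (-0.91) and C (-0.84), and combination replicates B (-0.82) and C (-0.74). HIST2H4A and HIST2H4B are copies with identical coding sequences. HIST2H2BE and HIST1H2AC, which lie in different clusters, show the interaction at high counts and in opposite directions, and neither call was lost under any alternative tried.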

How the results depend on the processing

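The counts of called members stayed within 1.5 times of those given under every alternative tried, in all 7 comparisons. With each library left out they ranged from 17 to 20 (AKTi), 19 to 25 (EZH2i) and 32 to 35 (combination against DMSO). Median log2 fold changes moved by more than the SD between replicates (0.116) in some cases. With scaling by library size only the medians were 0.84 (EZH2i), 0.91 (combination) and 0.96 (combination against AKTi), and with upper quartile 0.81, 0.89 and 0.95. These scalings shift all genes alike: the median of all tested genes in the combination was 0.06, 0.26 and 0.25 with TMM, library size and upper quartile, and the members lay 0.65 above it in each. With at least 10 counts in every library the medians were 0.84, 1.04 and 0.98, and 0.16 for the combination against EZH2i. With each library left out the median ranged from 0.58 to 0.79 in EZH2i, 0.56 to 0.87 in the combination and 0.73 to 0.97 for EZH2i against AKTi.

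The log2 ratio of the summed levels between combination and DMSO was 0.30, 0.65, 0.84, 0.84 and 1.08 for H1, H2A, H2B, H3 and H4 in CPM of the whole library. With TMM scaling as in the report and without the leading member it was -0.40, 0.33, 0.13, 1.30 and 0.081. The signs of values near 0 were not fixed. HIST1H2BC in AKTi was 0.018 by library size and by upper quartile and 0.041 without DMSO replicate A. For the combination against AKTi, HIST1H2BK was -0.000805 with DESeq2, -0.024 with all genes with at least 1 count and -0.0011 with only the libraries compared, and ranged from -0.085 to 0.0395 with each library left out. HIST1H4I was -0.018 with all genes with at least 1 count and ranged from -0.062 to 0.072. HIST1H2BK in EZH2i ranged from -0.017 to 0.046, and its interaction from -0.099 to 0.025. HIST1H2BC in AKTi ranged from -0.16 to 0.041.

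The letters of the replicates do not pair the libraries: deviations from the arm means correlated at -0.058 to 0.069 between libraries with the same letter. With the letter as a replicate block, 19, 24 and 37 members were called in AKTi, EZH2i and the combination against DMSO, 27 and 24 in the combination against AKTi and EZH2i, 31 in EZH2i against AKTi and 12 for the interaction. Of the named values, HIST3H2A in EZH2i (adjusted P = 0.045) and HIST1H1C in the combination (adjusted P = 0.047) became calls, and HIST2H4B in EZH2i (adjusted P = 0.059) was lost. Changes are relative to other genes, not to RNA per cell, and low-count members have few reads behind each value.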

Other observations

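The count table also holds 19 histone cluster entries with a pseudogene biotype, which the choice of protein-coding genes left out. Of these, 6 had no read and 6 passed the filter. HIST2H2BC was the highest, at 29.5 ± 2.16 CPM (SD, n = 3) in DMSO, 28.2 ± 1.15 under AKTi, 34.0 ± 3.32 under EZH2i and 35.2 ± 1.76 in the combination, and it rose by 0.25 (SE 0.09, adjusted P = 0.0088) on the log2 scale in the combination. HIST1H4PS1 rose in all 3 treated arms, from 0.723 ± 0.244 CPM in DMSO to 2.34 ± 0.578 under AKTi, 2.71 ± 0.716 under EZH2i and 3.04 ± 0.703 in the combination, with log2 fold changes of 1.64, 1.84 and 2.03. HIST1H2BPS2, which lies within the span of HIST1H2BN, went from 1.53 ± 0.132 CPM in DMSO to 0.328 ± 0.212 under AKTi, 1.31 ± 0.441 under EZH2i and 0.113 ± 0.0627 in the combination. Its log2 fold change was -3.68 (SE 0.59, adjusted P = 8.2e-07) in the combination. HIST1H2BPS2 passed the filter on low counts through libraries of the DMSO and EZH2i arms, where it is high. Part of its difference from those arms may therefore follow from the filter. These entries were named after their values were seen, and reads from near-identical coding genes may be among them.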
